A study of Mus musculus with 9 samples.

Results

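The genes described here are the AP-1 transcription factor genes and 3 further immediate early genes of mouse lung: Jun, Junb and Jund of the JUN family, Fos, Fosb, Fosl1 and Fosl2 of the FOS family, and Atf3, Egr1 and Ier3. They were taken by symbol from a gene table of 32114 rows. Each of the 10 symbols had 1 row, and all 10 passed the filter of a mean of at least 0.5 FPKM that left 16227 genes for testing. FPKM counts fragments per length of transcript and per library total, so levels can be set side by side between genes.

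RNA enriched for polyadenylated transcripts was sequenced from whole lung of mice aged 12 weeks, in 3 groups of 3 libraries. The control group had sterile saline. The LPS group had lipopolysaccharide, the endotoxin of Gram-negative bacteria that Toll-like receptor 4 senses, at 50 µg per mouse. The LPS plus PD group had the same LPS dose and breathed an aerosol of PD at 10 mg/mL. PD was taken to mean panaxadiol, a ginseng sapogenin named in the title of the series. The labels state neither strain nor genotype. The design speaks of 6 animals per group. The labels do not say how LPS was given, when the lungs were taken or whether each library is a separate animal. The p-values therefore measure the spread between libraries, which could be technical.

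AP-1 is a dimer of basic leucine zipper proteins. JUN proteins can pair with each other or with FOS and ATF proteins, whereas FOS proteins need a JUN partner, and the dimers bind the TGANTCA element or the related cyclic AMP element. Immediate early genes are transcribed without prior protein synthesis after MAP kinase, serum response factor and NF-kB signals, and many of their transcripts decay quickly. In the inflamed lung they are known as early responders in macrophages, epithelium and endothelium.

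The proximal promoters of 3 members are shown because each holds an element of the pathways that drive these genes. Sequences are from RefSeq on GRCm38.p6, whose promoter table matched 8 of the 10 genes, and run 5′ to 3′ on the gene's strand. Capitals mark the motif. For Jun it is TGACATCA, an AP-1-like element, at chr4:95052223-95052342 on the minus strand. For Fos it is TGACGT, the core of the cyclic AMP element, at chr12:85473770-85473889 on the plus strand. For Ier3 it is GGAATTTCC, an NF-kB element, at chr17:35821564-35821683 on the plus strand, a window that ends 29 bases before the RefSeq start.
Jun: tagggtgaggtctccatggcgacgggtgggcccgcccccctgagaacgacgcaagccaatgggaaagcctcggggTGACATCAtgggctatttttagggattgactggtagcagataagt
Fos: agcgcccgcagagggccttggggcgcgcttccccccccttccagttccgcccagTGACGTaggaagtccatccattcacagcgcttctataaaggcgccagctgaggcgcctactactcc
Ier3: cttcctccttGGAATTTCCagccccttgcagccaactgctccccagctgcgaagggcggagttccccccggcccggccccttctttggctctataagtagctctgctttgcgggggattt
The motifs began 45, 66 and 139 bases before the RefSeq start of Jun, Fos and Ier3. Both strands of the 250 bases upstream of 32851 promoters were searched. TGACATCA was in 2.93% of them, TGACGT in 6.47% and GGAATTTCC in 0.286%. TGACGT was also in the promoter of Atf3, while TGANTCA, present in 6.75% of promoters, and the CArG box of serum response factor, present in 1.47%, had no match in the 8 members. Fosl1 and Egr1 had no matched promoter and were not searched. Elements farther upstream than 250 bases would be missed. The motifs were chosen with the sequences in view, and a match describes letters, not binding.

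The depth of the libraries, found from the steps of their FPKM values, was 15.2 to 19.2 M reads. Counting error alone was at most 3.17% for Jun and Jund in any library. LPS replicate 2 stood apart. Its highest Pearson correlation with another library was 0.914, against at least 0.971 for the others, and results are given with and without it where it matters. The labels call the mice female, yet Xist was at most 0.0895 FPKM and Ddx3y at least 15.4 FPKM in all 9 libraries. Lung markers were present in every library, with Sftpc at 2085 FPKM in LPS replicate 2 and at 5442 FPKM or more in the others. Summed neutrophil markers (10 of 10 measured, none at 0 in all libraries) were 104 to 367 FPKM in control, 1246 to 4625 in LPS and 1300.4 to 3991 in LPS plus PD. The 8 ciliated airway markers summed to 457 to 832, 71.7 to 229 and 187 to 265 FPKM, and the 13 mitochondrial genes to 27655 to 57361, 16238 to 21556 and 10123 to 16257 FPKM. In the same order, heart muscle markers summed to 262 to 1082, 89.7 to 151 and 168 to 250 FPKM. Mesothelial markers summed to 355 to 631, 144 to 291 and 165 to 271 FPKM. The part of these shifts in the results below was not tested. In whole tissue, fewer cells of a type and less RNA per cell cannot be told apart.

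None of the 10 genes passed the test in any of the 3 comparisons (limma, Benjamini-Hochberg adjusted p under 0.05 over all 16227 genes). The patterns that can be described are lower Jund in both LPS-exposed groups and higher Jun in LPS plus PD. Fosl2 and, in 2 of 3 libraries, Ier3 were higher after LPS. Groups that did not overlap were no more frequent among the members than among all genes. Against control they were 2 of 10 members beside 37.6% of all genes in LPS, and 2 of 10 beside 34% in LPS plus PD. Both comparisons use the same control libraries. For Fos, Egr1, Junb, Fosl1, Atf3 and Fosb the group means lay closer together than the libraries of the control group. Ier3 had the highest mean of the 10 in every group and Fosb the lowest. In control the order by mean FPKM was Ier3, Jund, Junb, Jun, Fos, Egr1, Atf3, Fosl2, Fosl1 and Fosb. Only the ranges of Atf3 and Fosl2, and those of Fosl1 and Fosb, were separate between neighbours. In LPS the order was Ier3, Junb, Jun, Jund, Fos, Egr1, Atf3, Fosl2, Fosl1 and Fosb, with separate ranges for Fos and Egr1, Fosl2 and Fosl1, and Fosl1 and Fosb. In LPS plus PD it was Ier3, Jun, Junb, Jund, Fos, Egr1, Atf3, Fosl2, Fosl1 and Fosb, with separate ranges for Junb and Jund, Jund and Fos, Fosl2 and Fosl1, and Fosl1 and Fosb. By mean level Ier3 exceeded 98.4% of tested genes and Fosb 13.5%.

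**Figure D1:**
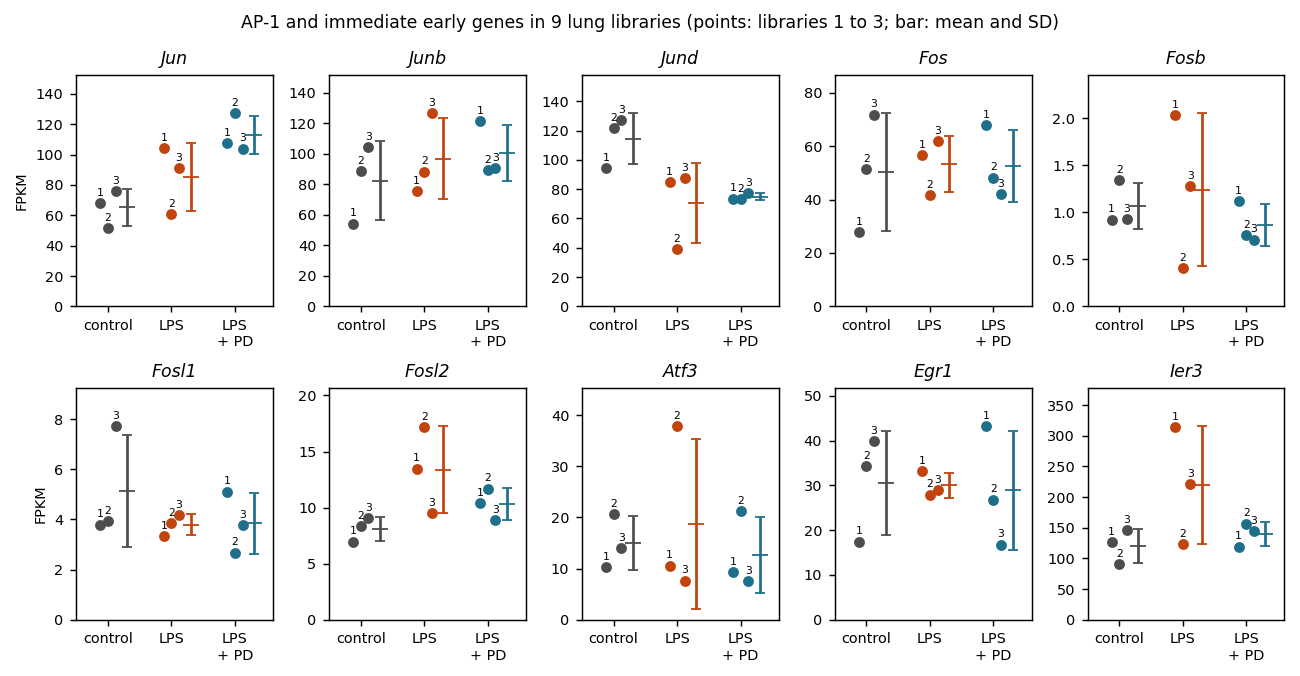
FPKM (y axis, from 0, a separate scale for each gene) of the 10 genes in control, LPS and LPS plus PD lung (x axis), with points for libraries 1 to 3 and a bar for the mean and SD. Jund lies lower in all 6 LPS-exposed libraries than in any control library, and the groups overlap for Fos, Egr1 and Junb.

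The first comparison asked how the LPS lung differed from the saline lung. In limma 613 of 16227 genes passed the threshold (3.78%), 200 higher (1.23%) and 413 lower (2.55%), and 0 of the 10 members. At an unadjusted p under 0.05 there were 3 members (Jund, Fosl2 and Ier3), against 29.9% of all genes. The groups did not overlap for 2 members (Jund lower, Fosl2 higher), against 37.6% of all genes (13.8% higher and 23.8% lower). The share by unadjusted p was thus about that of all genes, and the share without overlap was below it. The median difference of the members on the log2(FPKM + 1) scale was 0.11, beside -0.11 over all genes tested. On that scale 8 members were higher and 2 lower in LPS.

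Jun (ENSMUSG00000052684, GRCm38 chr4:95049034-95052222, a gene of 1 exon) encodes the strongest activator of its family. It was at 68.0, 51.8 and 75.9 FPKM in control and at 104, 60.7 and 91.2 FPKM in LPS. LPS replicates 1 and 3 were above every control library and replicate 2 was not. The log2 difference of LPS from control was 0.36 ± 0.23 (SE), with a 95% interval from -0.16 to 0.89 and an adjusted p of 0.304 in limma. Junb (ENSMUSG00000052837, chr8:84974484-84978718), a weaker activator that can oppose JUN, was at 54.2, 88.8 and 104 FPKM in control and at 75.6, 88.3 and 127 FPKM in LPS. The groups overlapped, and the difference was 0.25 (interval -0.39 to 0.89, adjusted p = 0.569). Jund (ENSMUSG00000071076, chr8:70698949-70700616, also 1 exon), the family member that is present without stimulus in most cells and restrains growth in fibroblasts, was at 94.4, 122 and 127 FPKM in control. In LPS it was at 84.8, 39.1 and 87.7 FPKM. Every LPS library was below every control library. The difference was -0.77 ± 0.29, the interval -1.43 to -0.10 and the adjusted p 0.127. LPS replicate 2 was the lowest, and without it the difference was -0.39.

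The strand of the libraries is not given in the sources used here, and the exons of 4 members overlap those of a gene on the opposite strand. Jun overlaps the antisense gene Junos (mean 1.03 FPKM) and Jund overlaps the antisense gene Gm11175. The exons of Junb overlap those of Prdx2 (45.9 FPKM) and those of Fosl1 overlap those of Ccdc85b (125.0 FPKM). Atf3 overlaps the opposite-strand gene Gm24748 outside its exons. Reads of the shared stretches cannot be assigned to 1 strand. The correlation of Junb with Prdx2 was -0.28, and that of Fosl1 with Ccdc85b 0.32, over the 9 libraries.

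The FOS family was low apart from Fos. Fos (ENSMUSG00000021250, chr12:85473890-85477273), which binds DNA only with a partner, was at 27.9, 51.4 and 71.8 FPKM in control and 56.5, 41.7 and 61.9 FPKM in LPS. The control libraries spanned the whole LPS range, and the difference was 0.16 (interval -0.60 to 0.92, adjusted p = 0.757). Fosb (ENSMUSG00000003545, chr7:19302696-19310051), another inducible activator, lay between 0.410 and 2.03 FPKM in all 9 libraries. Its highest and its lowest value were both in LPS, and the difference was 0.05 (interval -0.54 to 0.65, adjusted p = 0.900). Fosl1 (ENSMUSG00000024912, chr19:5447703-5455945) encodes FRA1, which lacks the strong activation domain of FOS. It was at 3.79, 3.92 and 7.70 FPKM in control and 3.33, 3.85 and 4.17 FPKM in LPS, with overlapping groups and a difference of -0.31 (interval -0.90 to 0.29, adjusted p = 0.446). Fosl2 (ENSMUSG00000029135, chr5:32135801-32157842) encodes FRA2, a related factor linked to lung fibrosis in mice that carry extra copies. It was at 6.97, 8.33 and 9.08 FPKM in control and 13.5, 17.2 and 9.50 FPKM in LPS. All LPS libraries were above all control libraries, replicate 3 by the least. Its difference was 0.63 ± 0.21 (interval 0.15 to 1.10, adjusted p = 0.0987).

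The other 3 members differed in which libraries were high. Atf3 (ENSMUSG00000026628, chr1:191170296-191218039), a stress-induced repressor that restrains Toll-like receptor responses in macrophages, was at 10.3, 20.7 and 14.0 FPKM in control and 10.6, 37.8 and 7.63 FPKM in LPS. Replicate 2 of LPS held the highest value of all 9 libraries, and the other LPS libraries were within or below the control range. The difference was 0.03 with the widest interval of the 10, from -1.27 to 1.32 (adjusted p = 0.981). Egr1 (ENSMUSG00000038418, chr18:34859823-34864984), a zinc-finger factor driven by serum response factor, was at 17.4, 34.3 and 39.9 FPKM in control and 33.3, 27.9 and 28.9 FPKM in LPS. The group means were 30.5 and 30 FPKM and the difference 0.05 (interval -0.78 to 0.89, adjusted p = 0.932). Ier3 (ENSMUSG00000003541, chr17:35821684-35822923), an NF-kB and MAP kinase target involved in cell survival, was at 126, 90.5 and 146 FPKM in control and 314, 123 and 222 FPKM in LPS. Its LPS replicates 1 and 3 exceeded every control library, while replicate 2 lay among them. The difference was 0.78 ± 0.33 (interval 0.03 to 1.54, adjusted p = 0.153).

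In LPS against control 3 members passed only where a library was left out or the libraries were weighted. Without LPS replicate 2, Ier3 differed by 1.15 (adjusted p = 0.0456, limma), and its adjusted p ran from 0.00996 to 0.382 over all alternatives. Without LPS replicate 3, Fosl2 differed by 0.84 (limma adjusted p = 0.0441), with a range from 0.0230 to 0.312. Without LPS replicate 2, where Fosl2 was highest, it differed by 0.44, the smallest value with a library left out. With array weights 3 members passed, Jun, Fosl2 and Ier3, where 3308 of all genes (20.4%) did. With 1 library left out at a time, the count of all genes called ran from 7 without control replicate 2 to 1038 without LPS replicate 3, and was 605 without LPS replicate 2. Equal FPKM totals in each library gave 204 higher and 188 lower in place of 200 and 413, and median-ratio scaling gave 160 and 210. The same scalings gave 87 higher and 44 lower, and 81 and 54, in place of 61 and 67 for LPS plus PD against control. Equal totals moved the median of all genes in LPS against control from -0.11 to 0.04, and under the scalings tried Jund differed there by -0.76 to -0.57, Fosl2 by 0.67 to 0.81 and Ier3 by 0.87 to 0.98, none past the threshold.

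**Figure D2:**
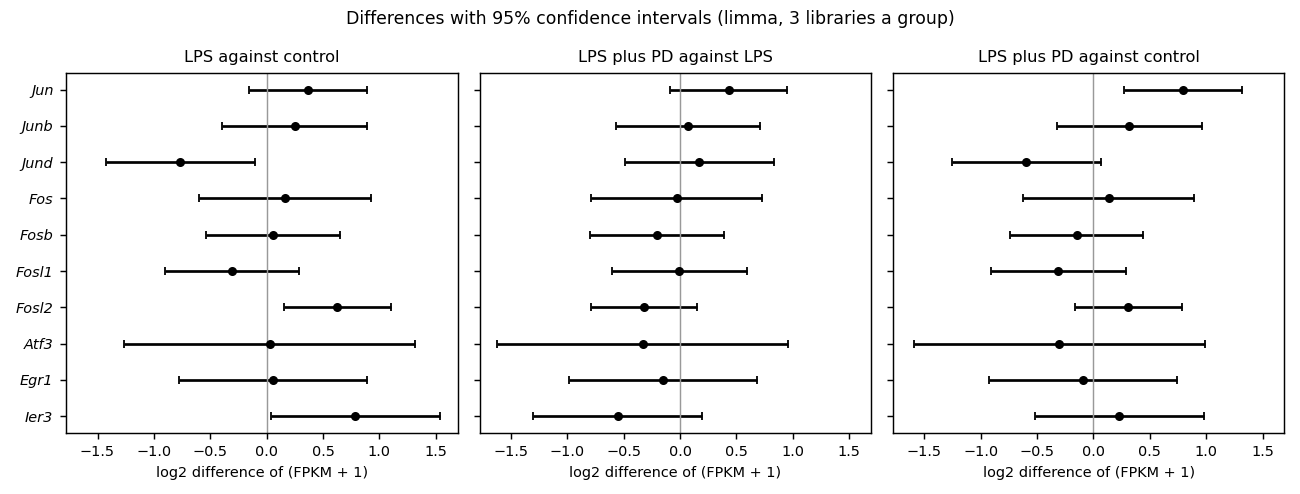
Difference of log2(FPKM + 1) (x axis) for each of the 10 genes (y axis) in the 3 comparisons (panels), with points for the limma estimate and lines for the 95% confidence interval. In LPS against control the intervals of Jund, Fosl2 and Ier3 leave out 0, and in LPS plus PD against control that of Jun does.

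The second comparison asked what inhaled PD did on top of LPS. Among the 16227 genes 0 passed the threshold (0%), and 653 (4.02%) had an unadjusted p under 0.05. Neither count held any of the 10 members. The groups did not overlap for 8.02% of all genes (3.99% higher and 4.02% lower) and for 0 members. With PD, 3 members were higher and 7 lower, with a median of -0.09 beside 0.03 over all genes.

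Jun was the member with the largest positive difference in this comparison. It stood at 108, 127 and 104 FPKM in LPS plus PD, and replicates 1 and 2 were above every LPS library. Its difference from LPS was 0.43, with an interval from -0.09 to 0.95 and an adjusted p of 0.866 in limma. Ier3 had the largest negative difference. It was at 119, 157 and 144 FPKM with PD, against a mean of 219.7 ± 95.5 (SD, n = 3) with LPS alone. The difference was -0.55, from -1.30 to 0.20, at an adjusted p of 0.866. Fosl2 was at 10.4, 11.7 and 8.87 FPKM with PD, between the control and the LPS mean, and its difference from LPS was -0.32 (interval -0.79 to 0.15). Jund was at 73.5, 73.2 and 77.5 FPKM with PD, a narrow range inside that of LPS. Without LPS replicate 2 its difference from LPS was -0.20, in place of 0.17 in all 9 libraries.

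The remaining members gave wide intervals around their differences. Junb was at 122, 89.5 and 90.4 FPKM with PD and Fos at 67.9, 48.2 and 42.0 FPKM. Their differences from LPS were 0.07 (interval -0.57 to 0.71) and -0.03 (interval -0.79 to 0.73). Egr1 was at 43.2, 26.8 and 16.8 FPKM with PD, its difference being -0.15 (interval -0.98 to 0.69). Atf3 was at 9.24, 21.2 and 7.57 FPKM with PD, and replicate 2 was again the highest of its group. Its difference from LPS was -0.33 (interval -1.62 to 0.96). Fosb was at 1.12, 0.760 and 0.709 FPKM and Fosl1 at 5.10, 2.67 and 3.78 FPKM, both overlapping LPS. Their adjusted p ran from 0.887 to 0.998 in limma, and the intervals do not show that the groups were alike.

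The third comparison set LPS plus PD against saline and shares its control libraries with the first. There 128 of 16227 genes passed in limma (0.789%), 61 higher (0.376%) and 67 lower (0.413%), and 0 of the 10 members. At an unadjusted p under 0.05 there was 1 member, Jun, against 19.2% of all genes. The groups did not overlap for 2 members (Jun higher, Jund lower), against 34% of all genes (13.3% higher and 20.7% lower). The members had 5 higher and 5 lower, with a median of 0.02 beside -0.07 over all genes.

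Jun was higher in each LPS plus PD library than in every control library, with means of 113 ± 12.5 and 65.2 ± 12.3 FPKM (SD, n = 3). The difference was 0.79 ± 0.23 (interval 0.27 to 1.32, adjusted p = 0.132). Jund was lower in each of them, with means of 74.7 ± 2.41 and 114 ± 17.5 FPKM. Its difference was -0.60 ± 0.29 (interval -1.26 to 0.06, adjusted p = 0.301). Without LPS replicate 2, Jun had an adjusted p of 0.0259 and Jund of 0.0346 at the same differences, since the groups share 1 estimate of the spread. Over all alternatives the adjusted p of Jun ran from 0.0259 to 0.417 and that of Jund from 0.0346 to 0.596. The count of all genes called then rose to 1613, and it was 2 without LPS plus PD replicate 1. Ier3 differed by 0.23 (interval -0.52 to 0.98) and Fosl2 by 0.31 (interval -0.16 to 0.78). Fos, Egr1, Atf3, Fosb, Fosl1 and Junb had differences from -0.31 to 0.32 with adjusted p of 0.544 or more.

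Within each library the make-up of the JUN family can be read without any scaling between libraries. These ratios were chosen after their values were seen and are given without a test. Jund made up 43.6%, 46.4% and 41.3% of the summed JUN family FPKM in control, 32.0%, 20.8% and 28.7% in LPS, and 24.3%, 25.3% and 28.5% in LPS plus PD. Every LPS-exposed library was below every control library. The share of Jun was 31.4%, 19.7% and 24.7% in control, 39.4%, 32.3% and 29.8% in LPS, and 35.6%, 43.9% and 38.2% in LPS plus PD. Jun per Jund was 0.721, 0.425 and 0.598 in control, so Jund was the more abundant. It was 1.23, 1.55 and 1.04 in LPS and 1.47, 1.74 and 1.34 in LPS plus PD, where Jun was. The share of Junb overlapped between the groups, from 25% to 47.0%. The summed family was 262 ± 45.3, 252.7 ± 59.6 and 288 ± 15.5 FPKM (SD, n = 3), and the FOS family summed to 64.7 ± 25, 71.8 ± 7.51 and 67.7 ± 15 FPKM. Fos held 76.6%, 73.9% and 77.4% of the FOS family sum. The share of Jund is also lower in the same 6 libraries in which the ciliated, mitochondrial, heart muscle and mesothelial sums are lower. In these libraries the neutrophil sum is higher, and the part of these sums in the share was not tested.

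**Figure D3:**
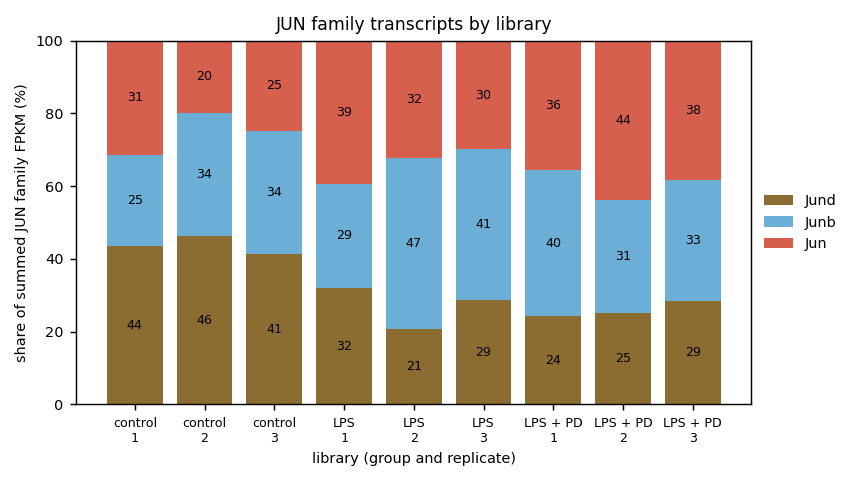
Share of the summed FPKM of Jun, Junb and Jund (y axis, percent) in each of the 9 libraries (x axis), stacked by gene. Jund takes 41.3% to 46.4% in control and 20.8% to 32.0% in the LPS-exposed libraries.

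For Fos, Egr1 and Junb, and also for Fosl1, Atf3 and Fosb, the 3 control libraries lay farther apart than the 3 group means. Means spread less than single libraries in any case. Egr1 was steady in LPS, from 27.9 to 33.3 FPKM. Control replicate 1 had the lowest Fos and Junb of all 9 libraries, at 27.9 and 54.2 FPKM, and control replicate 3 the highest Fos, at 71.8 FPKM. The group means of Fos were 50.3 ± 22.0, 53.4 ± 10.5 and 52.7 ± 13.5 FPKM (SD, n = 3). The standard error of Fos was larger than that of 84.7% of all tested genes, that of Egr1 than 88.3% and that of Atf3 than 97.1%. Over the 9 libraries the Pearson correlation of log2(FPKM + 1) was 0.85 for Fos with Egr1 and 0.83 for Junb with Fos. The deviations from the group means gave 0.88 and 0.84. Without the 2 libraries farthest from the median of the first gene of the pair, the values were 0.76 and 0.58. These libraries can differ between pairs. The 2 pairs had the highest plain correlation of 45, and again without LPS replicate 2 (0.87 and 0.84). They were not the 2 highest on the deviations or without the 2 farthest libraries. On the deviations from the group means Jun with Ier3 was highest at 0.95, against 0.55 over the libraries as they stood, and Fosl2 with Atf3 reached 0.86. Without the 2 farthest libraries Jun with Fosl2 was at 0.77, Fos with Fosb at 0.68 and Junb with Fosl1 at 0.65. The libraries share tissue and preparation, and no p is given.

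**Figure D4:**
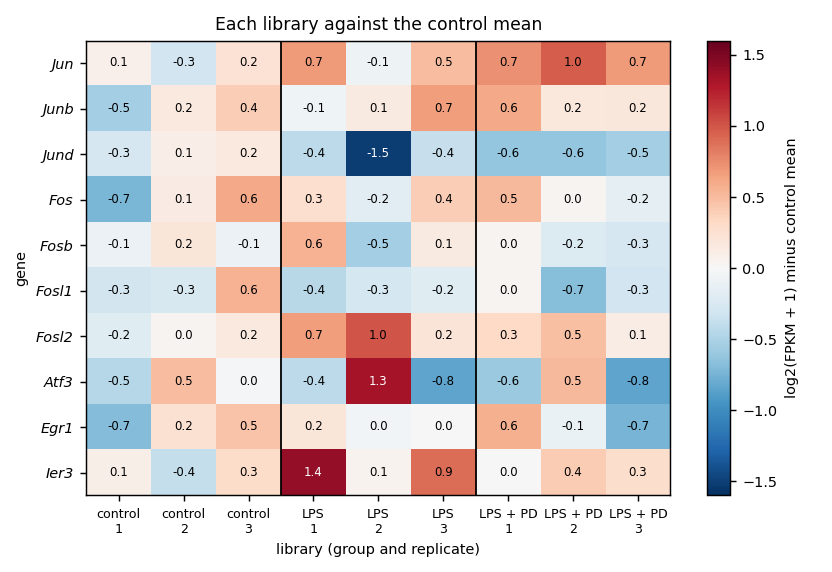
Difference of log2(FPKM + 1) from the control mean (colour) for each gene (y axis) in each library (x axis). Atf3 is highest in LPS replicate 2 (1.33) and Jund is lowest there (-1.51), whereas Fos and Egr1 are low in control replicate 1 (-0.73 and -0.70).

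**Figure D5:**
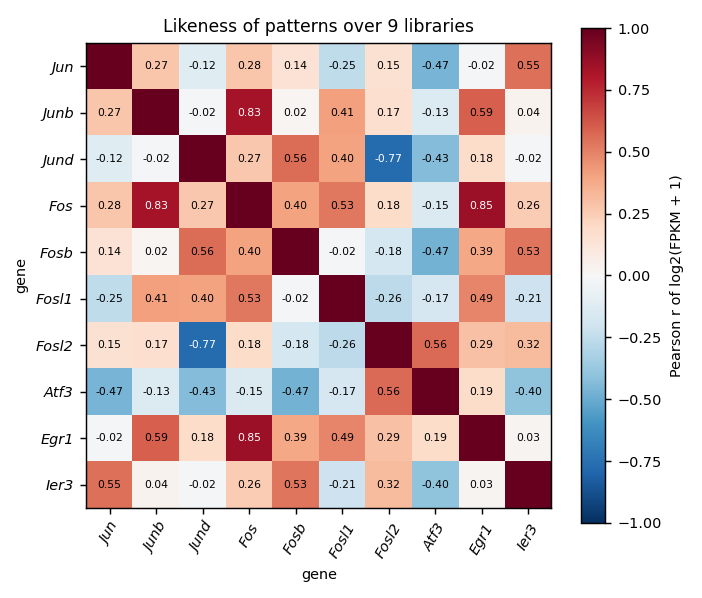
Pearson correlation of log2(FPKM + 1) over 9 libraries (colour) between each pair of the 10 genes (both axes). Fos, Egr1 and Junb form the highest pairs, and Jund with Fosl2 is the lowest at -0.77.

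The correlation of Jund with Fosl2 was -0.77 and was -0.46 without LPS replicate 2, and that of Fosl2 with Atf3 went from 0.56 to 0.09. That of Jun with Jund went from -0.12 to -0.85, the lowest of all pairs without LPS replicate 2. On the deviations from the group means it was 0.67. The tested genes whose pattern was most like each member were taken from 13422 compared, by Pearson correlation over 9 libraries. For Junb these were Cited2 (0.97), Cebpb (0.95) and Taf5 (0.89), where Cebpb is a leucine zipper factor of the inflammatory response. For Egr1 they were Dnajb12 (0.97), Zfp335 (0.86) and Fos (0.85). Fos was nearest to Rnasek (0.90), Ppp2r3a (0.87) and Ppp1r15a (0.86), the last a stress-induced phosphatase subunit. Jun was nearest to Snx25 (0.97), Ms4a4d (0.96) and Wipi1 (0.96), and Jund to Eva1c (0.98), Mief2 (0.98) and Nprl2 (0.98). Ier3 was nearest to Ammecr1l (0.96) and Acbd5 (0.95), and Fosl2 to Mindy3 (0.96), Patl1 (0.96) and Pappa (0.96). Atf3 was nearest to Nudcd1 (0.95), Lap3 (0.93) and Rnf24 (0.92). For Fosb the nearest were Mfn1 (0.94), Cipc (0.92) and Cltb (0.92), and for Fosl1 they were Tbc1d8 (0.96), Prpf3 (0.95) and Phkg2 (0.95). All these genes were picked as the highest of 13422 values over 9 libraries, LPS replicate 2 included. Values picked this way are high between unrelated genes too, so they describe likeness and do not show shared regulation.

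The counts for genes around AP-1 stand beside 1.23% of all genes higher and 2.55% lower in LPS against control, and 0.376% and 0.413% in LPS plus PD against control. Of 24 MAP kinase and serum response genes 1 rose after LPS and 0 fell, with a median log2 difference of 0.13 beside -0.11 over all genes. It was Map3k8, the kinase that links Toll-like receptors to ERK, at 3.6, 2.29 and 4.0 FPKM in control and 7.87, 16.0 and 7.16 FPKM in LPS (difference 1.34 ± 0.28, limma adjusted p = 0.0441). Of 17 phosphatase and feedback genes 2 rose and 0 fell, with a median of 0.40. Dusp6, the cytoplasmic ERK phosphatase, was at 37.7, 26.5 and 46.7 FPKM in control and 106, 65.3 and 79.5 FPKM in LPS (1.16 ± 0.24, adjusted p = 0.0423). Dusp5, the nuclear ERK phosphatase, went from 5.0 to 8.94 FPKM in the mean (0.73 ± 0.15, adjusted p = 0.0423).

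Of 23 other immediate early genes tested 2 rose and 1 fell after LPS, with a median of 0.48. Nr4a1, an orphan nuclear receptor, was at 12.9, 19.3 and 20.9 FPKM in control and 35.0, 30.8 and 43.0 FPKM in LPS (1.01 ± 0.21, adjusted p = 0.0427). Plk3, a stress-responsive kinase, rose by 0.99 (adjusted p = 0.0304), and Nr4a2, a relative of Nr4a1, fell by 0.82 (adjusted p = 0.0445). With PD the mean of Plk3 was 7.53 FPKM, against 13.2 FPKM in LPS, a difference of -0.74 at an adjusted p of 0.862. Of 17 other leucine zipper partners 0 passed in limma after LPS. Maff and Mafk, small MAF proteins, had the smallest p there, with differences of 1.23 (adjusted p = 0.0612) and 0.72 (adjusted p = 0.101). With LPS plus PD against control, Cebpd, an acute-phase factor, rose by 1.30 (adjusted p = 0.0392) and Rhob, an immediate early GTPase, by 0.98 (adjusted p = 0.0313).

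Among 23 genes described as AP-1 targets 4 rose and 1 fell after LPS, with a median of 0.43. The matrix protease Mmp9, which neutrophils also store, was at 4.23, 2.21 and 3.34 FPKM in control and 14.0, 37.4 and 16.9 FPKM in LPS (2.38 ± 0.33, adjusted p = 0.0248). Mmp14, a membrane protease, rose by 1.26 (adjusted p = 0.0498) and Csf2, which encodes GM-CSF, by 1.16 (adjusted p = 0.0338). Ccnd1, the cyclin D1 gene, fell by 0.94 (adjusted p = 0.0304) and was named after its value was seen. Against control, LPS plus PD had 1 higher and 2 lower, with Mmp9 at 2.74 (adjusted p = 0.0206), Odc1 at -1.18 (adjusted p = 0.0397) and Ccnd1 at -0.97 (adjusted p = 0.0352).  Of 10 heat shock genes, another stress-responsive set, 0 rose and 2 fell after LPS, Hsph1 by 1.37 (limma adjusted p = 0.0288) and Hspd1 by 0.83 (adjusted p = 0.0419). The median of the 10 was -0.88 beside -0.11 over all genes, with differences from -1.65 to -0.26.

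Between LPS plus PD and LPS 0 genes of any list passed in limma. The genes with the smallest p are given as values. Among the leucine zipper partners these were Cebpd at 0.70 and Atf5 at 0.51, and among the kinases Rps6ka3 at -0.29 and Map2k6 at 0.36. Among the feedback genes they were Dusp5 at -0.47 and Zfp36l1 at 0.44, and Rhob at 0.39 stood beside Plk3 among the immediate early genes. Lif, an interleukin 6 family cytokine, was at 4.41, 5.27 and 4.07 FPKM in LPS and 2.48, 1.68 and 2.0 FPKM with PD. All PD libraries were below all LPS libraries, and the difference was -0.87 (adjusted p = 0.811). Il11 at -0.56, Hsph1 at 0.42 and Hspb1 at 0.60 had an adjusted p of 0.866. Against control, genes of LPS plus PD that had the smallest p without passing were Map3k8 at 0.93, Mapkapk2 at 0.51, Dusp6 at 0.98, Dusp1 at 0.72, Hspd1 at -0.74 and Hsph1 at -0.95, with adjusted p from 0.0802 to 0.279.

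The calls in these lists depended on single libraries. Of the 13 list genes named as past the threshold in LPS against control, 11 were still past it without LPS replicate 2 and 10 without LPS replicate 3. The number was 4, 3, 2 and 1 without LPS plus PD replicate 2, control replicate 3, LPS plus PD replicate 3 and LPS replicate 1. It was 0 without control replicate 1, control replicate 2 or LPS plus PD replicate 1. Of the 5 named in LPS plus PD against control, 5 were past the threshold without LPS replicate 2 and 2 without LPS replicate 1 or 3. That number was 1 without control replicate 1 or 3 and 0 without control replicate 2 or any 1 of the LPS plus PD libraries. None of the 18 differences changed sign in any alternative run. Their groups did not overlap, so leaving out or weighting libraries could not have turned a sign.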

How the data were processed

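The values used were gene FPKM of 9 lung libraries, deposited by the authors in 1 table. The submitters' processing notes list HISAT2, StringTie, bcl2fastq and FastQC and the build GRCm38, without versions, settings or strand. The table was joined to samples by column names, and 0 columns were left over. Of 32114 identifiers 32064 were in GENCODE M21. Depth was read from the FPKM steps of 7792 genes of 1 exon, where at least 99.0% of the values below 100 reads came within 0.05 of whole.

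Genes with a mean of at least 0.5 FPKM were tested as log2(FPKM + 1), which understates folds of low genes, in limma 3.58.1 (R 4.3.3) with 1 mean per group over 9 libraries, a variance trend and Benjamini-Hochberg adjustment at 0.05. On simulated data of 16227 genes the fit recovered 61%, 48% and 57% of 2-fold changes for LPS against control, LPS plus PD against LPS and LPS plus PD against control. The simulated noise was independent and normal, with the same spread in all groups and no outlying library. Low genes such as Fosb were not among those changed. These shares therefore do not give the power of the tests on the real libraries. Members and lists were chosen with earlier results of these data known. Text names all members and, per list, up to 4 genes past the threshold by size, or the 2 with the smallest p. Some genes this rule or the correlation rule picked are not reported here. Figures used Python 3.11.15 and matplotlib 3.10.9. Pseudocounts, filters, scalings, weights, a replicate block and libraries left out were tried.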

Additional observations from a re-analysis of the deposited data

How the results depend on the processing

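Only 16 of the 30 member differences kept their sign in every alternative run. Among those were Jund (-0.96 to -0.34) and Fosl2 (0.44 to 0.84) in LPS against control and Jun (0.64 to 0.97) in LPS plus PD against control. For these the groups did not overlap, so leaving out or weighting libraries could not turn the sign. Only the scalings could have done so. The number of members called in LPS against control was 3 with array weights and 0 to 1 when a library was left out. In LPS plus PD against control it was 1 with only the 6 libraries compared, 1 with array weights and 0 to 2 when a library was left out. All genes called in LPS against control numbered 38 without a filter, 270 with a filter at 5 FPKM, 370 with median-ratio scaling, 392 with equal FPKM totals, 9 with only the 6 libraries, 3308 with array weights, 10 with the replicate block and 7 to 1038 when a library was left out. In LPS plus PD against LPS they numbered 1 with median-ratio scaling, 1 with quantile normalization and 2 with array weights. In LPS plus PD against control they numbered 6 without a filter, 1193 with only the 6 libraries, 1568 with array weights, 4 with the replicate block and 2 to 1613 when a library was left out. Leaving out control replicate 2 and LPS replicate 2 together, added after seeing the data, gave 110, 1 and 604 genes. The cause of these shifts was not tested. Pairing by replicate number was not seen across all genes: deviations of same-numbered libraries correlated from -0.18 to 0.19. With so few libraries a group this cannot exclude pairing. The replicate block called 0 members in each comparison, as did the main fit.

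Signs turned as follows. In LPS against control Fosb was -0.0061 and -0.033 with pseudocounts of 0.1 and 0.01, and Atf3 was -0.28 with array weights and -0.38 without both libraries. In LPS plus PD against LPS, with array weights and without both libraries, Jund was -0.15 and -0.20, Fosl1 0.18 and 0.0061, and Atf3 0.0044 and 0.32. In LPS plus PD against control Egr1 was 0.078 with equal totals, 0.14 with array weights and 0.025 without both libraries. With a library left out, LPS against control ranged from -0.026 to 0.44 for Junb, -0.20 to 0.47 for Fos, -0.20 to 0.35 for Fosb, -0.63 to 0.46 for Atf3 and -0.30 to 0.28 for Egr1. LPS plus PD against LPS ranged from -0.088 to 0.28 for Junb, -0.20 to 0.37 for Jund, -0.22 to 0.12 for Fos, -0.50 to 0.049 for Fosb, -0.19 to 0.18 for Fosl1, -0.76 to 0.32 for Atf3 and -0.48 to 0.18 for Egr1. LPS plus PD against control ranged from -0.23 to 0.44 for Fos and -0.44 to 0.23 for Egr1. Fosb and Fosl1 were not tested with the filter at 5 FPKM. The 18 named list differences past the threshold had 0 still past it without a filter and with the replicate block.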
